A study of Ovis aries with 40 samples.

Results

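The fibroblast growth factor (FGF) signals that shape the branching lung were followed through sheep gestation as 10 genes. They comprise the ligands *FGF7*, *FGF9*, *FGF10* and *FGF18*, the receptors *FGFR1*, *FGFR2*, *FGFR3* and *FGFR4*, and the feedback inhibitors *SPRY2* and *SPRY4*. The genes were chosen by name for their roles in this pathway and matched to the count tables by exact gene symbol. Of the 10 members, 9 were found among 24478 genes, all 9 passed the filter on low counts in every comparison, and *SPRY2* was not analysed here.

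FGF ligands are secreted proteins that bind tyrosine kinase receptors on nearby cells and start the RAS and MAP kinase relay. In the embryonic lung, FGF10 from the mesenchyme at the tips acts on FGFR2 in the epithelium and draws out new buds, while FGF9 from epithelium and mesothelium acts on the mesenchyme. Sprouty proteins are made in response to the signal and damp it, so that the ligand, its receptor and the brake form a loop.

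The data were bulk RNA-seq of proximal and distal lung from 2 genotypes of American Romney sheep with fetuses of 65, 80, 100 and 120 days and animals at term, entered here as 147 days. Each of the 20 conditions had 2 libraries, 40 in all, and the libraries of both regions came from the same animals. Wild-type (WT) animals were bred naturally, and those at term were born naturally. Cystic fibrosis (CF) animals were CFTR-/- and were made by somatic cell nuclear transfer from fetal fibroblasts of 1 male line in which exon 2 of *CFTR*, the epithelial chloride channel gene, had been targeted. All CF animals are therefore clones of 1 line and WT animals are not, so genotype, cloning and line cannot be told apart.

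Before term, WT libraries held 24670355 to 43700012 assigned reads and CF libraries held 85773994 to 103139483. At term the ranges were 115937437 to 126749480 in WT and 117316905 to 119451372 in CF, so depth goes with genotype before term and with day in WT. Both WT libraries of each region at 100 days carry 1 animal label, and 1 label is shared by a WT animal of 65 days and a CF animal of 100 days, so the p-values measure the spread between these libraries, which may in part be technical. The labels name epithelial tissue, yet the summed library-normalized read counts (CPM) of 8 mesenchymal markers were 3640 to 25600 over the 40 libraries, above the 482 to 1850 of the 7 measured epithelial markers. Levels are therefore those of mixed tissue, in which fewer cells of a type and less RNA per cell cannot be told apart. *CFTR* transcript lay lower in CF than in WT at each age and in each region, with no overlap of libraries in any of the 10 comparisons. The log2 ratio of the mean CPM, CF over WT, was -0.86 to -0.44 in the 8 comparisons before term and -1.46 and -1.43 at term. The library of CF proximal lung at 120 days, replicate 2, stood apart from its partner, with 6 lung markers summing to 18400 against 5110 CPM and 8 mesenchymal markers to 8960 against 13000 CPM.

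All CPM below were scaled for library composition. A gene is said to have risen, fallen or changed where edgeR's quasi-likelihood test gave an adjusted p, over all genes tested, of 0.001 or less with a log2 difference of 0.58 or more in size.

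The 9 genes differed widely in level. Divided by exonic length, *FGFR1* RNA was the most abundant member in 17 of 20 conditions, with 45.2 to 104 CPM per kb over the 40 libraries and a median of 67.4. *FGFR2* came first in the remaining 3 conditions, with a median of 44.6 CPM per kb, followed by *FGFR3* at 30.9 and *FGF10* at 17.3. Below these lay *FGFR4* at 13.3, *SPRY4* at 8.02, *FGF18* at 5.48 and *FGF7* at 4.86 CPM per kb. *FGF9* was lowest in 18 of 20 conditions, with a median of 0.734 CPM per kb, and *FGF18* was lowest in the other 2, both in WT at 80 days. Of 160 pairs of neighbours in the order within a condition, 49 had overlapping libraries. The libraries of *FGFR1* and *FGFR2* overlapped in 3 of the 14 conditions in which they were neighbours, those of *FGFR2* and *FGFR3* in 0 of 14, and those of *FGF18* and *SPRY4* in 6 of 9.

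*FGF10*, *FGF18* and *FGF7* had wider ranges over days in WT lung than the other 6 members. *FGF10*, the mesenchymal signal for budding, lies on chromosome 16 at 30460032 to 30555613 of the Oar_v4.0 genome, on the plus strand. In WT proximal lung its CPM was 44.9 and 44.9 at 65 days, 66.5 and 56.6 at 80 days, 98.9 and 83.3 at 100 days, 78.8 and 135 at 120 days, and 13.8 and 11.1 at term. In WT distal lung it was 40.8 and 45.0, then 63.3 and 60.4, 92.3 and 94.5, 85.9 and 110, and 12.8 and 8.98 at the same ages. In both regions every WT library before term lay above both libraries at term, and both libraries of 100 days lay above those of 80 days, which lay above those of 65 days. From 120 days to term the log2 difference was -3.10 ± 0.24 (SE) in WT proximal lung (edgeR, adjusted p = 0.00012) and -3.19 ± 0.19 in WT distal lung (7.21e-05), so *FGF10* fell in both. The distal call remained without any 1 library, whereas the proximal one was lost without WT proximal 147 days replicate 2 (log2 difference -2.95, adjusted p = 0.00118). The proximal call was also lost with both genotypes of the region in 1 edgeR fit, at the same log2 difference (adjusted p = 0.0329), as was the WT proximal call over days (adjusted p = 0.0851). The 8 mesenchymal markers moved with it, from 7780 to 13400 CPM in sum before term to 3640 to 6800 CPM at term in WT, and none was at 0. In CF, where *FGF10* did not pass the test, their sum was 8790 to 25600 CPM before term and 3770 to 9400 CPM at term. Other marker sums also differed between these ages in WT, with 8 immune markers going from 48.1 to 86.5 CPM before term to 383 to 794 CPM at term, 7 epithelial markers from 613 to 933 CPM to 1630 to 1850 CPM, and 6 mesothelial markers from 20.7 to 89.7 CPM to 170 to 200 CPM. *MARCO*, *WT1*, *LRRN4* and *BNC1* were at 0 in a WT library before term and *CALB2* at term. The part of these cell types in the WT fall was not tested.

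No change of *FGF10* passed the test in CF lung. The CPM in CF proximal lung was 29.2 and 36.1 at 65 days, 34.4 and 52.2 at 80 days, 77.8 and 33.5 at 100 days, 50.0 and 3.44 at 120 days, and 43.8 and 44.0 at term. In CF distal lung it was 27.3 and 13.9, then 69.9 and 55.4, 70.7 and 72.9, 55.4 and 31.4, and 44.4 and 22.2. Libraries at term overlapped those of 120 days in both CF regions, and the log2 difference from 120 days to term was 0.68 ± 0.95 in proximal lung (adjusted p = 0.803) and -0.40 ± 0.42 in distal lung (0.502). The gap between replicates at CF proximal 120 days, 3.86 on the log2 scale, was the widest of any member, and it was the library named above as standing apart that was low.

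*FGF7*, a mesenchymal growth factor for epithelium that uses the same receptor form as FGF10, lies on chromosome 7 at 57740594 to 57804130, on the minus strand. Its CPM in WT proximal lung was 2.42 and 5.71 at 65 days, 6.42 and 6.71 at 80 days, 14.98 and 13.5 at 100 days, 28.8 and 38.4 at 120 days, and 29.1 and 20.2 at term. In WT distal lung it was 4.20 and 3.70, then 5.07 and 3.74, 13.3 and 14.96, 20.1 and 29.6, and 24.3 and 21.4. The libraries of 100 days lay above those of 65 and 80 days and below those of 120 days in both WT regions, while those at term overlapped the 120-day libraries. From 65 to 120 days *FGF7* rose, with a log2 difference of 3.03 ± 0.38 in WT proximal lung (edgeR, adjusted p = 0.000702) and 2.64 ± 0.26 in WT distal lung (0.000443). Both calls were lost with the libraries of 100 days, which carry 1 animal label, summed (0.00172 and 0.00202), and the proximal one with the replicate number as a block (0.00173).

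In CF lung the *FGF7* level at term stood above every earlier one. The CPM in CF proximal lung was 5.58 and 3.29 at 65 days, 6.60 and 14.1 at 80 days, 5.27 and 7.16 at 100 days, 15.7 and 13.8 at 120 days, and 70.7 and 42.0 at term. In CF distal lung it was 3.44 and 2.58, then 3.34 and 5.07, 7.38 and 8.33, 12.9 and 14.6, and 58.7 and 31.4. Both libraries at term exceeded all 8 earlier ones in each CF region. *FGF7* changed over days in CF distal lung, with a range of 3.94 on the log2 scale between the lowest and highest day (adjusted p = 0.000269). The step from 120 days to term alone gave 1.70 ± 0.34 there (adjusted p = 0.0122).

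*FGF18*, a ligand of the later mesenchyme with a role in alveolar growth, lies on chromosome 16 at 3263015 to 3303505, on the plus strand. WT proximal CPM was 2.999 and 3.43 at 65 days, 1.36 and 2.75 at 80 days, 15.6 and 21.5 at 100 days, 13.5 and 7.13 at 120 days, and 16.5 and 11.7 at term. WT distal CPM was 3.50 and 3.95, then 2.29 and 2.01, 16.3 and 15.5, 18.1 and 12.04, and 21.9 and 21.1. In WT lung all libraries from 100 days on lay above all those of 65 and 80 days, in both regions. *FGF18* changed over days in WT distal lung, with a log2 range of 3.30 (edgeR, adjusted p = 9.36e-05), and in WT proximal lung the range was 3.14 (0.00131).

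The CF libraries of *FGF18* began higher and ended lower. The proximal CPM was 14.3 and 8.98 at 65 days, 20.2 and 8.16 at 80 days, 24.3 and 44.8 at 100 days, 34.1 and 74.6 at 120 days, and 8.59 and 2.11 at term. The distal CPM was 14.7 and 16.1, then 15.8 and 7.72, 23.0 and 28.4, 33.97 and 39.9, and 6.01 and 1.77. At term both CF distal libraries were below all 8 of the earlier days, and from 120 days to term the log2 difference was -3.25 ± 0.56 (adjusted p = 0.00763).

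*FGF9*, the ligand of epithelium and mesothelium, lies on chromosome 10 at 35569929 to 35596162, on the minus strand. It had only 23 to 169 reads per library, and its CPM was 0.285 to 2.27 over all 40 libraries with a median of 1.04. Its smallest adjusted p over days among the WT courses was 0.184, at a log2 range of 1.36 in WT proximal lung.

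**Figure D1:**
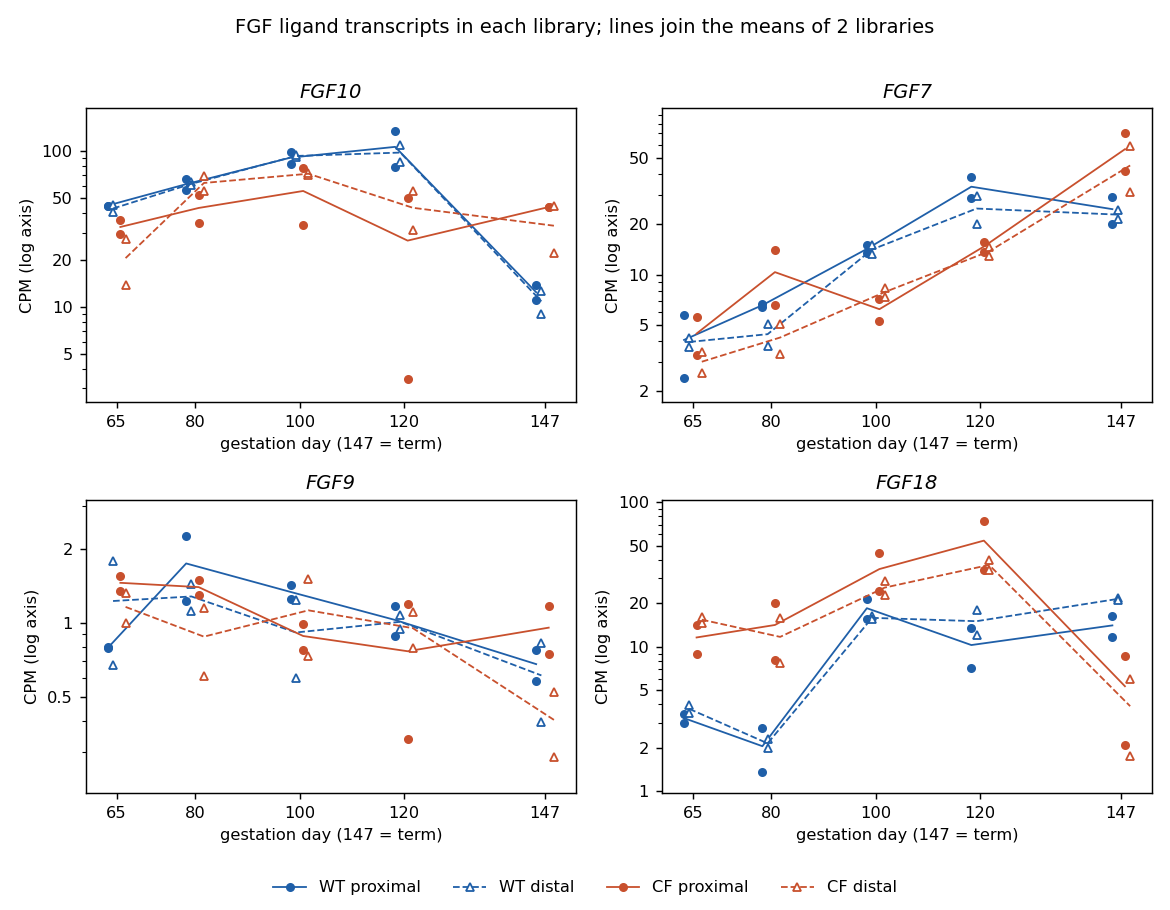
CPM of the 4 ligands (log axis) against day, for WT and CF in proximal and distal lung; each point is 1 library and lines join the means. In WT *FGF10* drops from 78.8 to 135 at 120 days to 8.98 to 13.8 at term, and CF *FGF18* lies above WT before term and below it at term.

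Of the receptors, *FGFR2* showed the clearest time course. This receptor has an epithelial form that binds FGF7 and FGF10 and a mesenchymal form that binds FGF9, and the counts do not separate them. It lies on chromosome 22 at 40345779 to 40447032, on the minus strand. WT proximal CPM was 239 and 239 at 65 days, 278 and 291 at 80 days, 325 and 302 at 100 days, 113 and 136 at 120 days, and 152 and 168 at term. The CF distal libraries held 241 and 236 CPM, then 353 and 317, 346 and 320, 115 and 127, and 158 and 105 CPM. All libraries of 65, 80 and 100 days lay above all those of 120 days and term in each of these courses.

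The WT distal *FGFR2* course ran from 210 and 235 CPM at 65 days through 273 and 260 at 80 days and 328 and 336 at 100 days to 95.0 and 131 at 120 days and 143 and 134 at term. In CF proximal lung the values were 219 and 244, then 324 and 259, 299 and 262, 130 and 126, and 150.4 and 131 CPM. The same separation of the first 3 ages from the last 2 held here. *FGFR2* changed over days in WT proximal lung (log2 range 1.31, edgeR adjusted p = 0.000145) and in WT distal lung (1.55, 0.000464), and it fell from 65 to 120 days in WT proximal lung by 0.95 ± 0.12 on the log2 scale (0.000695). With the 2 WT libraries of 100 days, which carry 1 animal label, summed to 1, the distal call (0.00367) and the fall (0.00206) were lost, and the fall was also lost with both genotypes in 1 fit (0.00624). In the CF courses the ranges were close in size but the tests were not passed, at 1.15 in proximal lung (adjusted p = 0.0601) and 1.47 in distal lung (0.00269).

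Among the 4 receptors, per exonic length, the share of *FGFR2* RNA was 38.0% ± 1.69 (SD, n = 2) in WT distal lung at 100 days and 14.9% ± 3.09 at 120 days. The corresponding shares in CF distal lung were 29.9% ± 2.46 and 12.7% ± 0.683. Both WT distal libraries of 100 days carry 1 animal label, so the SD there may in part be technical. The *FGFR1* share ranged from 32.2% to 60.9% over the 40 libraries, that of *FGFR3* from 14.1% to 29.2% and that of *FGFR4* from 2.50% to 17.3%.

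*FGFR1*, a receptor mainly of the mesenchyme, lies on chromosome 26 at 32178502 to 32228305, on the minus strand. Before term its lowest, median and highest CPM were 170.5, 201 and 258 in the 16 WT libraries and 249, 291 and 392 in the 16 CF libraries. At term the 4 WT libraries spanned 249.8 to 350.4 CPM and the 4 CF libraries 232 to 292 CPM. Its range over days was 0.48 on the log2 scale in WT proximal lung (adjusted p = 0.107) and 0.66 in WT distal lung (0.0256).

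*FGFR3*, which binds FGF9 and FGF18 and is best known from cartilage, lies on chromosome 6 at 115991934 to 116002382, on the minus strand. Before term its lowest, median and highest CPM were 83.3, 114 and 188 in WT and 122, 161 and 198 in CF. The libraries at term held 83.3 to 109 CPM in WT and 150.5 to 196 CPM in CF, with no overlap. *FGFR4*, a receptor known from later alveolar development, lies on chromosome 5 at 36005627 to 36016774, on the plus strand. Its CPM in WT distal lung was 20.6 and 47.7 at 65 days, 86.4 and 88.3 at 120 days and 31.4 and 24.2 at term, and in CF distal lung 22.7 and 24.4, 72.1 and 117, and 56.6 and 39.1 at those ages. Both genotypes thus had their highest *FGFR4* levels at 100 or 120 days, but no course passed the test, the smallest adjusted p over days being 0.00381, in CF distal lung at a log2 range of 2.03.

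*SPRY4*, an inhibitor of receptor tyrosine kinase signalling that FGF induces, lies on chromosome 5 at 50634397 to 50643465, on the minus strand. Its CPM in WT proximal lung was 27.8 and 19.5 at 65 days, 66.6 and 43.6 at 120 days and 69.4 and 41.4 at term. In CF distal lung it was 30.6 and 30.8 at 65 days, 86.1 and 71.3 at 120 days, and 28.8 and 6.82 at term. Replicate 2 was the lower CF library at term in both regions, and the gap between the CF proximal libraries there, 32.9 against 6.11 CPM, came to 2.43 on the log2 scale. *SPRY4* did not pass the test over days in any course, and the WT distal range was 1.21 (adjusted p = 0.0336).

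**Figure D2:**
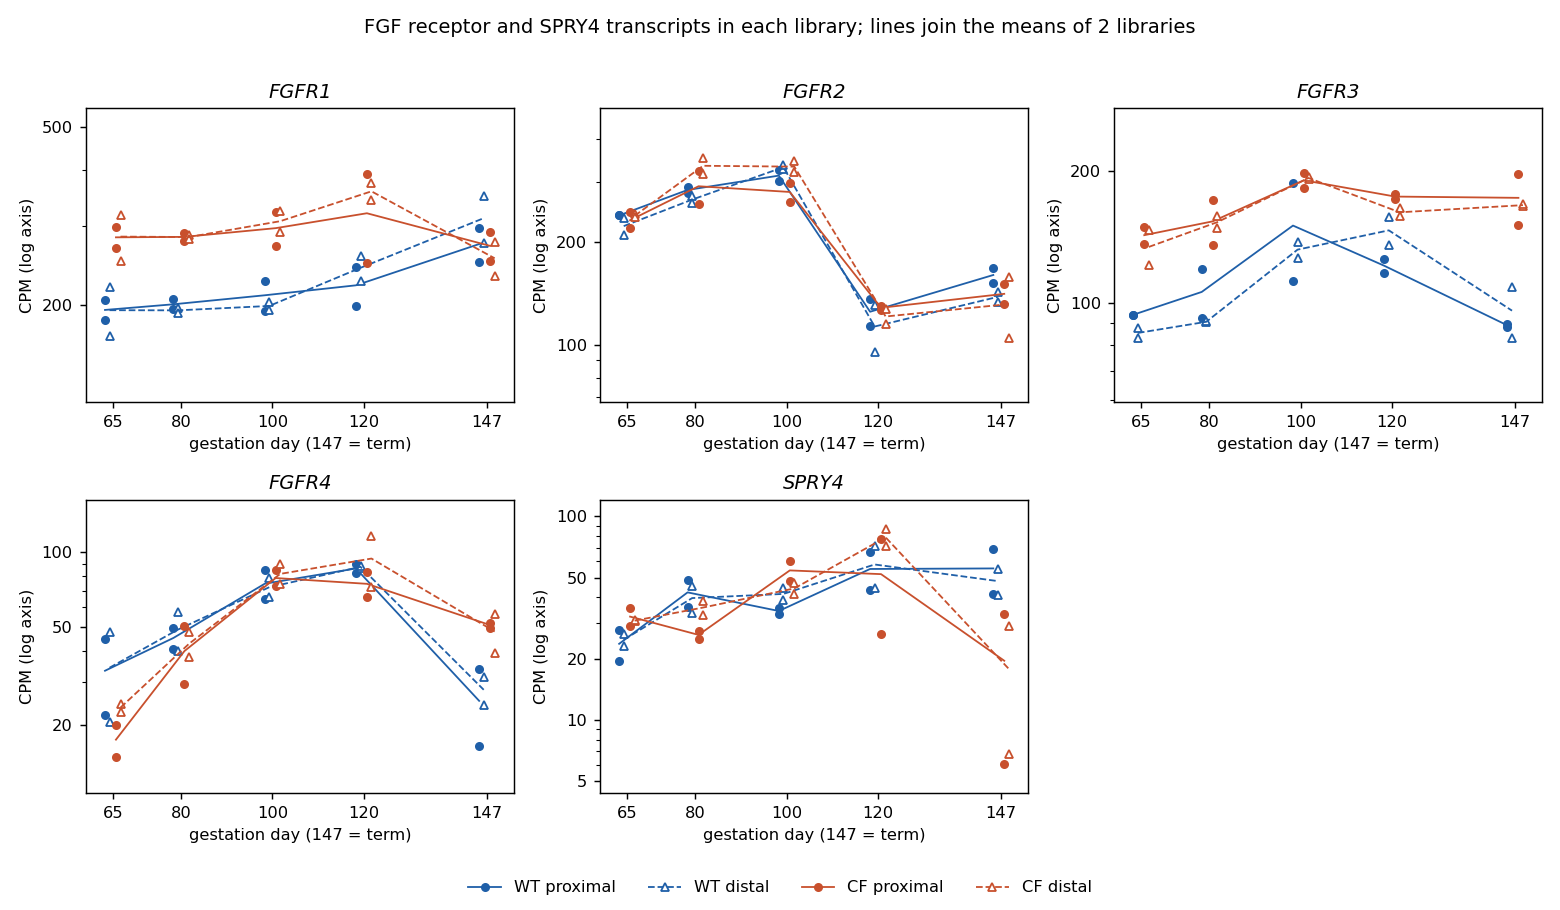
CPM of the 4 receptors and *SPRY4* (log axis) against day, for WT and CF in proximal and distal lung; each point is 1 library and lines join the means. *FGFR2* holds 210.2 CPM or more in every library of 65 to 100 days and 168 CPM or less in every later one.

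Counted over the time courses, 3 of 9 members changed over days in WT proximal lung (*FGF7*, *FGF10*, *FGFR2*), where 10.6% of 18186 genes tested did. In WT distal lung 4 of 9 changed (the same 3 and *FGF18*), against 7.48% of all genes, and in CF distal lung 1 of 9 changed (*FGF7*), against 3.59%. In CF proximal lung edgeR called 0 of 9, against 0.0254% of all genes, with 4 at an unadjusted p under 0.05 (20.2% of all genes) and 4 called by DESeq2 (*FGF7*, *FGF18*, *FGFR2*, *FGFR4*, against 10.6% of all genes). That count stayed at 0 without the CF proximal library of 120 days that stood apart. The median range of the 9 members was 1.36 in WT proximal, 1.55 in WT distal, 1.15 in CF proximal and 1.82 in CF distal lung, and that of all genes was 0.97, 1.03, 1.14 and 1.33 on the log2 scale.

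Calls depended on single libraries for several of these. *FGF7* over days in WT proximal lung lost its call without any 1 of the 8 libraries from 80 days on (adjusted p 0.00128 to 0.00383), and in CF distal lung without any 1 of the 6 libraries of 65, 80 and 100 days (0.00108 to 0.00129). *FGFR2* over days in WT distal lung lost its call without either library of 80 or 100 days or WT distal 120 days replicate 1 (adjusted p 0.00129 to 0.00373), and *FGF7* there without WT distal 100 days replicate 1 or 2 (0.0011 and 0.00105) or with these libraries summed (0.00109).

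Between 65 and 120 days, before any animal was born, 2 of 9 members changed in WT proximal lung (*FGF7* higher, *FGFR2* lower), against 3.17% of all genes, and 1 of 9 in WT distal lung (*FGF7*), against 1.56%. In the CF courses edgeR called 0 of 9, against 0% of all genes in proximal and 0.338% in distal lung. An unadjusted p under 0.05 was reached by 4 and 6 members there, against 15.3% and 30.8% of all genes. DESeq2 called 1 (*FGFR4*) and 3 (*FGF7*, *FGFR2*, *FGFR4*), against 3.47% and 8.51% of all genes. The WT proximal *FGFR2* call did not survive the loss of any 1 of the 8 libraries up to 120 days (adjusted p 0.00185 to 0.00838). The *FGF7* call was lost in WT proximal lung without any 1 of 7 of those libraries, WT proximal 65 days replicate 2 being the exception (0.0016 to 0.00542), and in WT distal lung without any 1 of the 6 libraries of 65, 100 and 120 days (0.00147 to 0.00406). Without either WT distal library of term, *FGF18* (0.000847 and 0.000732) and *FGF10* (0.000569 and 0.000501) were called as well.

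From 120 days to term 1 of 9 members changed in each WT region, *FGF10* downward, against 2.14% of all genes in proximal and 1.15% in distal lung. Here edgeR called 0 of 9 in CF, against 0% of all genes in proximal and 0.338% in distal lung. Of the CF members, 2 in proximal and 5 in distal lung had an unadjusted p under 0.05, against 15.1% and 40% of all genes. DESeq2 called 1 (*FGF18*) and 3 (*FGF7*, *FGF18*, *SPRY4*), against 2.17% and 12.2% of all genes. *SPRY4* in CF distal lung differed by -2.15 ± 0.53 (adjusted p = 0.0223). Without CF distal 147 days replicate 1 the difference was -3.55, with replicate 2, at 6.82 CPM, as the only CF distal library of term.

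**Figure D3:**
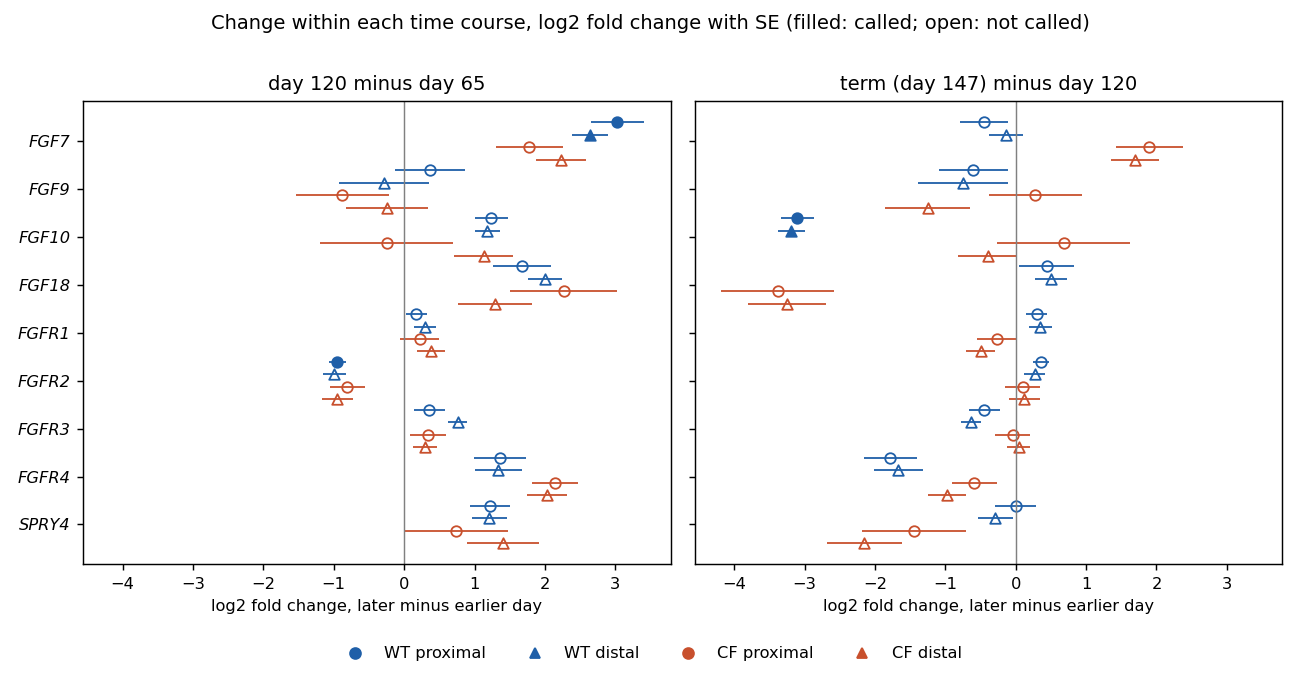
Log2 differences of the 9 members over 2 intervals (day 65 to 120, day 120 to term), for the 4 time courses, with bars of 1 SE and filled symbols for called differences. The WT *FGF10* differences to term, -3.10 and -3.19, are filled, while those of CF are 0.68 and -0.40.

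*FGF18* showed the widest difference between the genotypes of any member. Averaged over 65 to 120 days, CF lung was higher than WT by 1.62 ± 0.22 on the log2 scale in distal lung (edgeR, adjusted p = 8.48e-05), and this call remained without any 1 library. In proximal lung the difference was 1.98 ± 0.33 (adjusted p = 0.00115), and it was called without CF proximal 120 days replicate 1 (2.10, 0.000319) or either CF proximal library of term (1.97, 0.000568 and 0.000561). The first of these leaves the library that stood apart, with 74.6 CPM, as the only CF proximal one of 120 days, and without that library the difference was 1.80 (0.00115) and not called. Both CF libraries lay above both WT libraries at each of the 4 ages in both regions. At 65 days, for example, the distal CPM was 14.7 and 16.1 in CF against 3.50 and 3.95 in WT. The 2 regions share animals, and the share of all genes with libraries so separated is not given, here or for the other members. Before term 42% of all genes in distal and 33.7% in proximal lung had an unadjusted p under 0.05 between the genotypes (edgeR).

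At term the order of *FGF18* was turned. The CF distal libraries held 6.01 and 1.77 CPM and the WT ones 21.9 and 21.1, a log2 difference of -2.44 ± 0.45 (adjusted p = 0.00299). Without CF distal 147 days replicate 1 the difference was -3.62, with the library of 1.77 CPM as the only CF distal one of term. The genotype difference at term less that before term was -4.06 ± 0.51 in distal lung and passed the test (adjusted p = 0.000282), and it was -3.38 ± 0.75 in proximal lung (0.0212). The distal call was lost without WT distal 147 days replicate 1 (-4.05, adjusted p = 0.0013) or CF distal 147 days replicate 2 (-3.45, 0.00111).

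Smooth muscle markers moved with *FGF18*. The 7 measured markers of 8 (*ACTA2*, *MYH11*, *TAGLN* and others) summed to 349 to 864 CPM in WT and 724 to 1670 CPM in CF before term, and to 658 to 1100 CPM in WT and 388 to 668 CPM in CF at term, and none was at 0 in any library. Across the 40 libraries the log2 CPM of *FGF18* and of *ACTA2*, smooth muscle actin, had a Pearson correlation of 0.96, with 0.97 over the 20 WT and 0.95 over the 20 CF libraries, which share animals, ages and depth. With the summed markers it was 0.91 over all 40 libraries. Within the 16 CF libraries before term, where *FGF18* was high, it was lower, at 0.87 with *ACTA2* and 0.66 with the summed markers. Within the 16 WT libraries before term it was 0.97 with each. The part of smooth muscle in the *FGF18* difference was not tested.

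**Figure D4:**
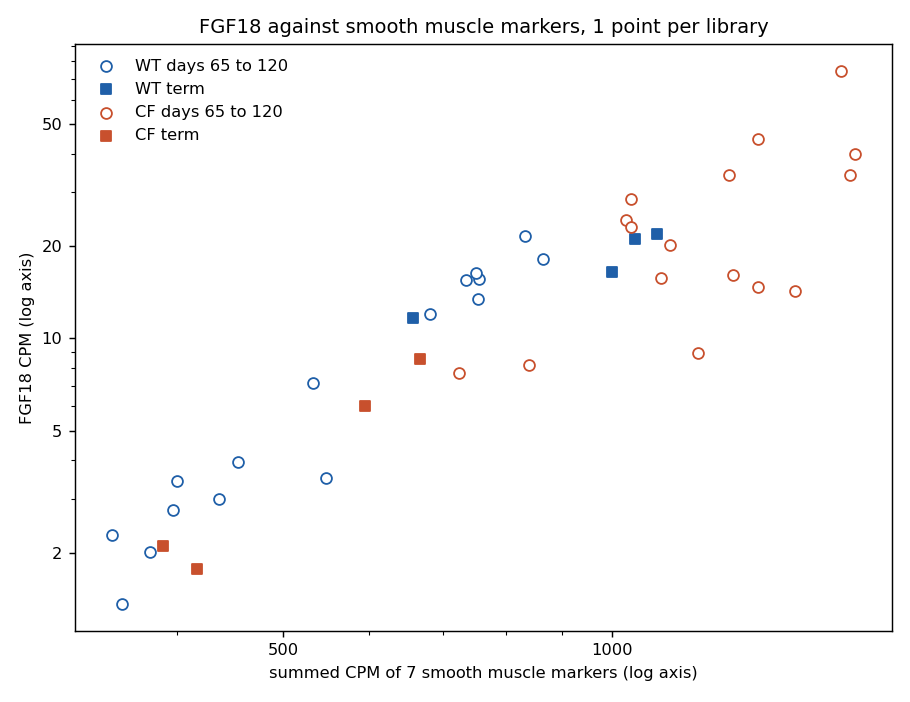
*FGF18* CPM against the summed CPM of 7 smooth muscle markers (both log axes), 1 point per library, for WT and CF before term and at term. Higher marker sums go with higher *FGF18* (Pearson r of the log2 values 0.91, n = 40), with the CF libraries before term at marker sums of 724 to 1670 CPM and those at term at 388 to 668 CPM.

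*FGF10* and *FGF7* leaned the other way. The CF libraries of *FGF10* lay below the WT ones in 7 of the 8 comparisons of an age and region before term and above them in both regions at term. The mean difference before term was -0.65 ± 0.17 in distal lung (adjusted p = 0.0097), it was 1.64 ± 0.35 at term (0.00704), and the difference between these was 2.29 ± 0.39 (0.0019), so none passed the limit of 0.001. With the replicate number as a block the last was 2.30 (0.000609) and was called. In proximal lung the same 3 values were -0.92 ± 0.37 (adjusted p = 0.0963), 1.82 ± 0.76 (0.193) and 2.74 ± 0.85 (0.0848). For *FGF7* the CF libraries were below in 5 of 8 and then above in both regions at term. The distal differences were -0.54 ± 0.15 before term (adjusted p = 0.0135) and 1.01 ± 0.30 at term (0.0362), and the proximal ones -0.40 ± 0.22 (0.221) and 1.19 ± 0.44 (0.139). The log2 ratio of *FGF18* over *FGF10* CPM within a library restates these values and is no further test. In WT the ratio was -5.61 to -1.95 before term and 0.08 to 1.23 at term. In CF it was -2.84 to 4.44 before term, the highest being in the library of 120 days that stood apart, and -4.38 to -2.35 at term.

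*FGFR1* was higher in CF than WT before term by 0.57 ± 0.09 on the log2 scale in distal lung (edgeR, adjusted p = 0.00033) and 0.52 ± 0.11 in proximal lung (0.00597), and at term it was -0.27 ± 0.18 and -0.01 ± 0.22. The distal difference at term less that before term was -0.84 ± 0.20 (0.0124). The first is past the limit of p but just under that of size, and *FGFR1* was called without WT distal 65 days replicate 2 (0.61), WT distal 120 days replicate 1 (0.58) or CF distal 65 days replicate 2 (0.60). In proximal lung it was called without the CF library of 120 days that stood apart (0.58, adjusted p = 0.000564). *FGFR3* was higher in CF distal lung by 0.52 ± 0.07 before term (9.67e-05, also under the limit of size) and by 0.83 ± 0.14 at term (0.00212). CF libraries lay above WT libraries in all 8 comparisons of an age and region before term for *FGFR1* and in 7 of 8 for *FGFR3*. At term they did so in 0 of 2 and 2 of 2. The regions share animals, so these comparisons are not independent, and the share of all genes so ordered is not given. *FGFR2* did not pass the test, at 0.13 ± 0.10 in distal lung before term (95% interval -0.06 to 0.32), with CF above in 2 and below in 1 of the 8. *FGFR4* was -0.11 ± 0.17 there before term and 0.81 ± 0.34 at term (adjusted p = 0.659 and 0.118), and -0.31 ± 0.18 and 1.02 ± 0.37 in proximal lung (0.261 and 0.131).

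*SPRY4* at term was lower in CF than WT in both regions, where the libraries did not overlap. In distal lung the log2 difference was -1.4 ± 0.44 (adjusted p = 0.0441). In proximal lung it was -1.63 ± 0.54 with the replicate number as a block (edgeR, adjusted p = 0.105). Without CF distal 147 days replicate 1 the distal difference was -2.83, and the difference at term less that before term was -2.99. Replicate 2, at 6.82 CPM, was then the only CF distal library of term. Other marker sums separated the same libraries at term, with 8 proliferation markers at 31.8 to 50.1 CPM in CF and 127 to 266 CPM in WT, 8 immune markers at 94.5 to 208 and 383 to 794 CPM, 7 epithelial markers at 777 to 1450 and 1630 to 1850 CPM, and 6 mesothelial markers at 69.9 to 94.6 and 170 to 200 CPM. Of these markers *CALB2* was at 0 in a term library of each genotype and *LRRN4* and *BNC1* in one of CF, and their part in the differences at term was not tested.

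In all, edgeR called 1 of 9 members between the genotypes before term in distal lung (*FGF18*), against 6.86% of all genes. In proximal lung it called 0 of 9, against 2.5%, with 4 at an unadjusted p under 0.05 (33.7% of all genes) and 1 called by DESeq2 (*FGF18*, against 8.86% of all genes). At term it called 0 of 9 in each region, against 0.339% of all genes in proximal and 1.25% in distal lung. There 6 members in each region had an unadjusted p under 0.05, against 19.9% of all genes in proximal and 30.6% in distal lung. DESeq2 called 0 in proximal and 3 in distal lung (*FGF10*, *FGF18*, *FGFR3*), against 4.33% and 7.64% of all genes. The difference at term less that before term was called for 1 of 9 members in distal lung, against 1.07% of all genes. For proximal lung that count was 0 of 9, against 0.221%, with 5 at an unadjusted p under 0.05 (20.1% of all genes) and 1 called by DESeq2 (*FGF18*, against 3.3% of all genes).

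**Figure D5:**
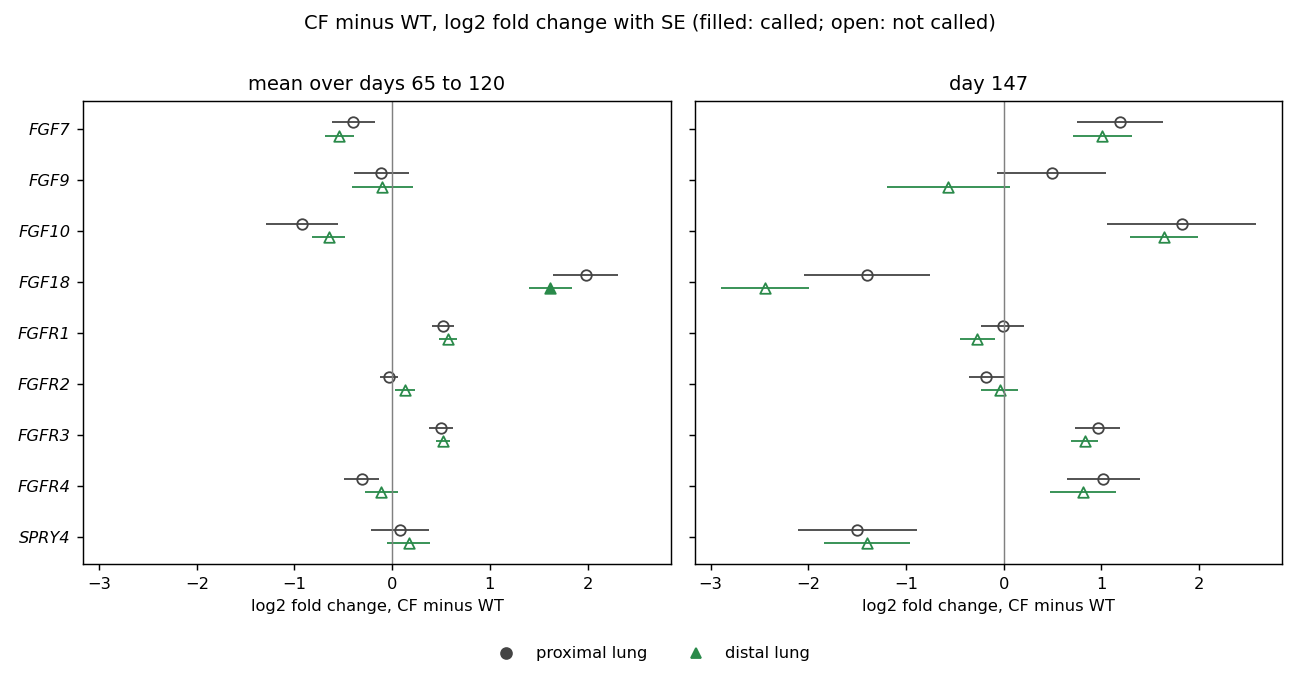
Log2 CF minus WT differences of the 9 members before term (mean of 4 ages) and at term in proximal and distal lung, with bars of 1 SE and filled symbols for called differences. *FGF18* passes from 1.62 before term to -2.44 at term in distal lung, and *FGF10* from -0.65 to 1.64.

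No member was called between proximal and distal lung. Before term the proximal minus distal differences ran from -0.15 to 0.27 on the log2 scale in WT and from -0.23 to 0.40 in CF, with *FGF7* highest in both genotypes. The 95% interval for WT *FGF10* was -0.56 to 0.63, which leaves room for a modest difference. At term they ran from -0.61 (*FGF18*) to 0.21 in WT and from 0.05 to 1.24 (*FGF9*) in CF. In each of the 4 comparisons edgeR called 0 of 9 members, against 0% of 20779 genes, of which 227 to 849 had an unadjusted p under 0.05 and DESeq2 called 1 to 7. An unadjusted p under 0.05 was reached by 0 members in WT and by 1 in CF both before term and at term, and DESeq2 called 0 in each. Because both regions came from the same animals, the fit was repeated with the animal as a block, which also called 0 members. It gave -0.18 to 0.24 in WT and -0.48 (*FGF10*) to 0.38 (*FGF7*) in CF before term, and -0.63 (*FGF18*) to 0.23 in WT and 0.02 to 1.27 (*FGF9*) in CF at term. The unadjusted p in that fit was under 0.05 for *FGF7* in CF before term (0.0115), *FGF9* in CF at term (0.0353) and *FGF18* in WT at term (0.0429), with adjusted p of 0.46, 1 and 0.92 from edgeR.

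The wider pathway was described by 5 gene lists. Over days in WT proximal lung, edgeR called 1 of 8 other FGF ligands, 5 of 13 co-receptors and heparan sulfate enzymes, 2 of 12 other feedback inhibitors and 4 of 10 targets and partners, against the 10.6% of all genes given above. In WT distal lung it called 3 of 13 co-receptors and enzymes, 1 of 12 inhibitors and 4 of 10 targets, and 0 of 7 other ligands, where 2 had an unadjusted p under 0.05 and DESeq2 called 2. The share of all genes called by edgeR there was 7.48%. Of the 16 relay genes, which carry the signal from receptor to MAP kinase, edgeR called 0 in each WT region. An unadjusted p under 0.05 was found for 10 in proximal and 8 in distal lung (50.1% and 50.4% of all genes), and DESeq2 called 3 and 5 (32.6% and 32.9% of all genes). In CF proximal lung 1 of 60 listed genes was called (*HS6ST2*), against 0.0254% of all genes, and in CF distal lung 2 of 60 (*HS6ST2* and *SOX9*), a share of 3.33% near the 3.59% of all genes.

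*HS6ST2*, an enzyme that sulfates the heparan chains on which FGFs bind their receptors, had the widest range of the called listed genes in all 4 courses. Its CPM in WT distal lung was 70.0 ± 12.6 (SD, n = 2) at 65 days, 93.1 ± 11.3 at 80 days, 23.4 ± 0.930 at 100 days, 2.07 ± 0.598 at 120 days and 0.195 ± 0.0967 at term. It fell from 65 to 120 days by 5.06 ± 0.30 (SE) on the log2 scale in WT distal lung and by 6.87 ± 0.48 in CF distal lung. *FLRT3*, a membrane protein that binds FGF receptors, rose from 22.2 ± 2.31 to 182 ± 24.0 CPM over the same days in WT distal lung. *KL*, the klotho co-receptor, rose from 1.56 ± 0.665 to 13.3 ± 5.32 CPM there. Both WT distal libraries of 100 days carry 1 animal label, so the SD of *HS6ST2* at 100 days may in part be technical. With these libraries summed, edgeR called 51 rather than 286 of all genes from 65 to 120 days in WT distal lung. Whether the listed genes kept their calls then is not given here.

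The ETS factors *ETV4* and *ETV5*, which FGF signalling induces at bud tips, and *SOX9*, a factor of the distal tip, fell with age in WT. Between 65 and 120 days the WT distal differences were -1.96 ± 0.22 for *ETV4*, -2.68 ± 0.15 for *ETV5* and -3.65 ± 0.36 for *SOX9* on the log2 scale. *BMP4*, a growth factor at the tip, fell by 1.09 ± 0.12 there. In CF distal lung the mean CPM also went down over these days, without an edgeR call. It went from 60.1 to 24.1 for *ETV4*, 225 to 41.2 for *ETV5*, 131 to 12.1 for *SOX9* and 83 to 34.5 for *BMP4*. *SPRY3*, a feedback inhibitor of the Sprouty family, went the other way, with 19 ± 1.85 CPM in WT distal lung at 65 days and 162 ± 15.3 CPM at 120 days, a rise of 3.08 ± 0.21. At term it held 64.3 ± 16.4 CPM there. In WT proximal lung *SPRY3* fell from 179 ± 32.9 CPM at 120 days to 56.3 ± 9.25 CPM at term. *LRIG3* (log2 range 1.03), *FGF20* (2.61) and the co-receptors and enzymes *NDST1* (2.22) and *FLRT2* (1.26) also changed over days in WT proximal lung.

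Between the genotypes before term, 3 of 61 listed genes were called in distal lung, all higher in CF. That share, 4.92%, is below the 6.86% of all genes called there. They were *PLCG1*, a phospholipase bound by the receptors, at 0.81 ± 0.13 (edgeR, adjusted p = 0.000248), *MAP2K2*, a kinase of the relay, at 0.59 ± 0.08 (0.000141), and *ETV4* at 1.05 ± 0.18 (0.000478). *MAP2K2* was just past the limit of size, and DESeq2 did not call it there, whereas it called *PLCG1* and *ETV4*. *ETV4* had 60.1 ± 9.35 CPM (SD, n = 2) in CF and 33.6 ± 9.78 CPM in WT distal lung at 65 days, and 2.95 ± 1.89 and 11.9 ± 1.10 CPM at term. The difference at term less that before term was called for 1 of 61 listed genes in distal lung, a share of 1.64% near the 1.07% of all genes. That gene was *ETV4* at -3.04 ± 0.41 (adjusted p = 0.00048). In proximal lung before term edgeR called 0 of 61 listed genes, against 2.5% of all genes, and DESeq2 called *FGF14*, *HS6ST2*, *FRS3* and *MAP2K2*. At term edgeR called 0 of 61 in each region, against 0.339% of all genes in proximal and 1.25% in distal lung, and DESeq2 called some in each.

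Over the 40 libraries, the genes most like each member were sought among 13710 genes by the Pearson correlation of log2 CPM, as a description in which libraries share animals, ages and depth. *FGF7* was most like *MFAP4* (0.93), a microfibril protein, and *ARNTL* (0.92), a clock factor. *FGF10* was most like *PHEX* (0.93) and *ELF2* (0.92), and *FGF18* like *ACTA2* (0.96) and *SAMD11* (0.91). For the receptors the leading genes were *LOC101111719* (0.91) and *INF2* (0.91) for *FGFR1*, *PDE7A* (0.94) and *PALM3* (0.89) for *FGFR2*, *PLEKHH3* (0.91) and *LZTS2* (0.89) for *FGFR3*, and *CASS4* (0.89) and *PCOLCE2* (0.87) for *FGFR4*. *SPRY4* was most like *ST3GAL2* (0.88) and *PPP1R9B* (0.87), and *FGF9* like *KLHL5* (0.68) and *LOC101122892* (0.67). Within WT and within CF, the *FGF7* and *MFAP4* pair gave 0.96 and 0.95, and the *FGF10* and *PHEX* pair 0.96 and 0.87.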

How the data were processed

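Poly(A) RNA of snap-frozen lung had been copied with oligo-dT priming and sequenced as 100 bp paired ends. The authors aligned reads to the Oar_v4.0 (oviAri4) genome with STAR and deposited raw counts per gene from featureCounts 1.6.3 (version per the submitters' processing notes). Of the small counts, 69.2% to 85.8% per library were even numbers, so counts move mostly in steps of 2. The 4 time-course tables were used, with 0 value columns left unmapped, and a further table that pairs the genotypes was not used because it repeats the CF columns.

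Counts were kept by filterByExpr (minimum count 10, minimum total 15), which left 18186 to 20779 genes, scaled by TMM (factors 0.751 to 1.19) and tested with edgeR 4.0.16 (quasi-likelihood, Benjamini-Hochberg adjustment over all genes tested) in R 4.3.3 with limma 3.58.1. Each time course was a fit of 10 libraries, each genotype comparison a fit of 20 and the region comparison a fit of 40. DESeq2 1.42.0, other scaling and filters, thinning to 24670355 reads, summed WT libraries of 100 days, blocks and the loss of each library were tried as alternatives.

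All members were named. Of the pathway lists, up to 3 called genes per role and comparison were named, by range or fold, and other called genes (*BMP4*, *NDST1*, *FLRT2*) were added after their values were seen. Members and lists were chosen with earlier results of these data known. Replicate numbers pair the regions by animal label, except in WT at 100 days, where both numbers carry 1 label. The animal block took each number there as its own animal. Deviations of the 2 regions correlated at -0.47 to 0.85 (median 0.51, over 0.1 in 6 of 10 conditions). Between days and between genotypes, where animals differ, they were over 0.1 in 17 of 40 and 4 of 10 pairs. Only the CF distal course had all 6 pairs of days before term over 0.1 (0.15 to 0.66). The CF proximal pairs were of both signs, at -0.75 to 0.83.

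Counts were simulated with 64 to 66 genes changed by each of 1, 2 and 3 on the log2 scale and all others unchanged. The changes were placed in CF libraries for the genotype test and in those of term for the WT tests. The distal genotype test before term (19739 genes) called 37.9% of genes changed by 1, 71.2% by 2 and 82.8% by 3, and 0 unchanged genes. The WT distal test of term against 120 days (17882 genes) called 1.56%, 36.4% and 53.8%. The WT distal test over days on the same genes called 0%, 40.9% and 52.3%, with 1 unchanged gene called. In the data far more genes differed, with 42%, 39.4% and 50.4% of all genes at an unadjusted p under 0.05 in these 3 edgeR tests. The simulated rates are therefore not those of the real tests.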

Additional observations from a re-analysis of the deposited data

Results flagged for a closer look

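The genotype difference of *FGF18* in distal lung itself differed between term and the earlier ages. The CF minus WT log2 difference at term less its mean over 65 to 120 days was -4.06 ± 0.51 (edgeR's quasi-likelihood interaction test, adjusted p = 0.000282). Both CF libraries were above both WT libraries at each of the 4 earlier ages and below them at term. With the adjusted p over all genes at 0.001, the call was lost without WT distal 147 days replicate 1 or CF distal 147 days replicate 2, and the difference was -4.05 and -3.45 then. With counts thinned to equal depth the difference was -4.10 (adjusted p = 0.000852) and was still called. WT animals at term were born naturally, and birth, cloning and genotype cannot be told apart here. Smooth muscle marker sums moved the same way, and their part was not tested.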

How the results depend on the processing

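The 67 member results followed were those called or with an adjusted p of 0.05 or less, a choice that favours steady directions. None turned its direction under any alternative, though results over days are ranges, which cannot turn. Of 15 called results, 7 were kept under every setting, 6 with every library left out and 5 under both, and 52 results that were not called had an adjusted p of 0.05 or less, of which DESeq2 called 41. The count of members called over days was 8 in the 4 courses together, 22 with DESeq2, 21 at an adjusted p of 0.05, 5 with the WT libraries of 100 days summed, and 6 to 9 with 1 library left out. From 65 to 120 days it was 3, against 17 with DESeq2, 17 at 0.05, 1 with the replicate block, 0 with those libraries summed, and 1 to 5 with 1 library left out. From 120 days to term it was 2, against 9 with DESeq2, 9 at 0.05 and 1 to 3 with 1 library left out. Between the genotypes before term it was 1, against 3 with DESeq2, 3 at 0.05, 2 without a filter, 2 after thinning, and 1 to 3 with 1 library left out. At term it was 0, against 3 with DESeq2, 6 at 0.05 and 0 to 2 with 1 library left out. For the change between these it was 1, against 5 with DESeq2, 6 at 0.05, 2 with the replicate block and 0 to 2 with 1 library left out. Between the regions it was 0 in every setting and 0 to 0 over the 16 libraries left out in turn. The animal block, and a block that crossed the numbers in the 3 conditions whose regions correlated below 0 (added after the data were seen), also gave 0.

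With both genotypes of a region in 1 fit, WT proximal calls were lost for *FGF10* over days (adjusted p = 0.0851) and from 120 days to term (0.0329), *FGF7* over days (0.00131) and from 65 to 120 days (0.00177), and *FGFR2* from 65 to 120 days (0.00624), at nearly the same log2 differences. *FGF7* in WT proximal lung lost its calls over days and from 65 to 120 days under the replicate block (0.00205 and 0.00173), and *FGFR2* its WT proximal call from 65 to 120 days (0.00128). *FGF10* gained a call under that block for the distal difference at term less before term (2.30, 0.000609). In the CF distal course, the 1 whose pairs of days before term all correlated over 0.1, the block changed no call. The cause was not tested. Scaling by DESeq2's size factors moved the median of all genes by at most 0.05 on the log2 scale, and the median of all genes was -0.18 for the proximal change between genotypes. Over all genes and days, edgeR called 1928 in WT proximal, 1368 in WT distal, 5 in CF proximal and 700 in CF distal lung, and DESeq2 called 5921, 6022, 2090 and 5782. *FGF9*, with 23 to 169 reads, had the fewest reads of the members, and *FGF18* went down to 36.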
